A study of Mus musculus with 20 samples.

Results

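The changes that appeared between 12 h and 24 h in AICAR were measured by comparing 3 arrays taken after 24 h with 3 arrays taken after 12 h. These 6 arrays belong to a series of 20, in which Ampkα1/α2 double knockout murine embryonic fibroblasts, SV40-immortalized, were given 1 mM AICAR for 1, 2, 4, 8, 12 or 24 h or were taken at 0 h without it. Each time has 3 arrays, except 8 h, which has 2. The double knockout and the immortalization are shared by every group, the 0 h group included. SV40 immortalization rests on the viral large T antigen, which is known to bind p53 and the retinoblastoma protein. Every array after 0 h had AICAR, so 12 further hours in AICAR and 12 further hours in culture cannot be told apart. Separate cultures for the arrays of a group are not stated in the labels, and p-values then reflect only how much these arrays vary, which may be technical.

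The features compared were all probe sets with a single gene symbol, 28898 of the 45141 in the table. After a filter on low signal 20460 of them, for 12944 genes, were tested. Each gene is described by its brightest probe set (by the mean of all 20 arrays); the average of all its probe sets, dim ones below the filter included, is called its probe-set mean, and is given for genes past the test where it differs by more than 1.5 times. Signals are on the log2 scale, so that a difference of 1 is a 2-fold change. Array values are given in the order of replicates 1, 2 and 3, and ± after a difference is its standard error from the fit (n = 3 arrays a group). A gene passed the test at an adjusted p under 0.05. Over all genes tested, the 3 arrays at 24 h lay wholly above those at 12 h in 2476 (19.1%) and wholly below in 1538 (11.9%). Most genes below were picked by the size of their change or test statistic. Remarks that their arrays lie apart follow largely from that choice. Where a mean lay below 5.08, the 95th percentile of 23 non-specific control probe sets, the signal is called below background, and the difference gives no exact fold of the transcript.

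AICAR is taken up by adenosine transporters and phosphorylated by adenosine kinase to ZMP, which is an intermediate of purine synthesis and mimics AMP at AMPK, the kinase that senses low energy. These cells lack the catalytic subunits of that kinase, and the design asks which transcripts change with AICAR in their absence. Much of what follows concerns the interferon response. Type I interferons bind a cell-surface receptor whose JAK kinases phosphorylate STAT proteins. A complex that holds STAT2 and IRF9 then binds the interferon-stimulated response element (ISRE) in the promoters of antiviral genes. The other large theme, ribosome biogenesis, is the making of ribosomal RNA and its assembly with ribosomal proteins in the nucleolus, one of the most costly tasks of a growing cell.

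Replicate 3 had the narrowest spread of signal in both groups, with an interquartile range of 2.84 at 12 h and 2.91 at 24 h, against 3.20 to 3.24 on the other 4 arrays. Actin controls near the 3′ end exceeded those near the 5′ end, a measure of RNA integrity, by amounts that overlapped between the groups (0.435 to 0.542 at 12 h, 0.503 to 0.557 at 24 h), as did those of Gapdh (0.106 to 0.171 and 0.125 to 0.154). Of 12 fibroblast markers, 10 lay above background in both groups. Prkaa1, which encodes the first catalytic subunit, read 8.05, 8.22 and 7.92 at 12 h and 8.27, 8.36 and 8.16 at 24 h (0.20 ± 0.084, adjusted p = 0.125). Prkaa2, which encodes the second, read 6.98, 5.99 and 5.77 at 12 h and 5.70, 5.84 and 5.76 at 24 h (-0.47 ± 0.21, adjusted p = 0.15). The sources used here do not give which part of the transcripts the probe sets read or whether it was deleted, so these signals check nothing about the knockout.

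From 12 h to 24 h, 2400 of 12944 genes passed the test (18.5%), of which 1521 were higher (11.8%) and 879 lower (6.79%). The counts for gene lists below are to be read against these shares of higher and lower genes. Most changes were small: 905 of the rises and 486 of the falls lay between 0.25 and 0.5, and the median rise and fall were 0.41 and -0.40. At least 2-fold rises numbered 72 (0.556%) and at least 2-fold falls 26 (0.201%). Above 4-fold there were 25 rises and 0 falls, and above 8-fold 8 rises, one of them the predicted gene Gm9706 (3.03), which is passed over in the naming of the largest rises below and was named here after its value was seen. The median change over all genes tested was 0.016. Over probe sets the counts were 2136 higher (10.4%) and 1283 lower (6.27%). The split between directions moved with single arrays: leaving out AICAR 12h replicate 3 gave 1342 probe sets higher and 1354 lower, leaving out AICAR 24h replicate 3 gave 2312 and 880, and leaving out replicate 3 of every group gave 1654 and 867. With AICAR 24h replicate 2 left out, 1246 were higher and 978 lower, and without AICAR 12h replicate 2 the falls numbered 846. A fit of these 6 arrays alone called 784 higher and 488 lower.

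**Figure D1:**
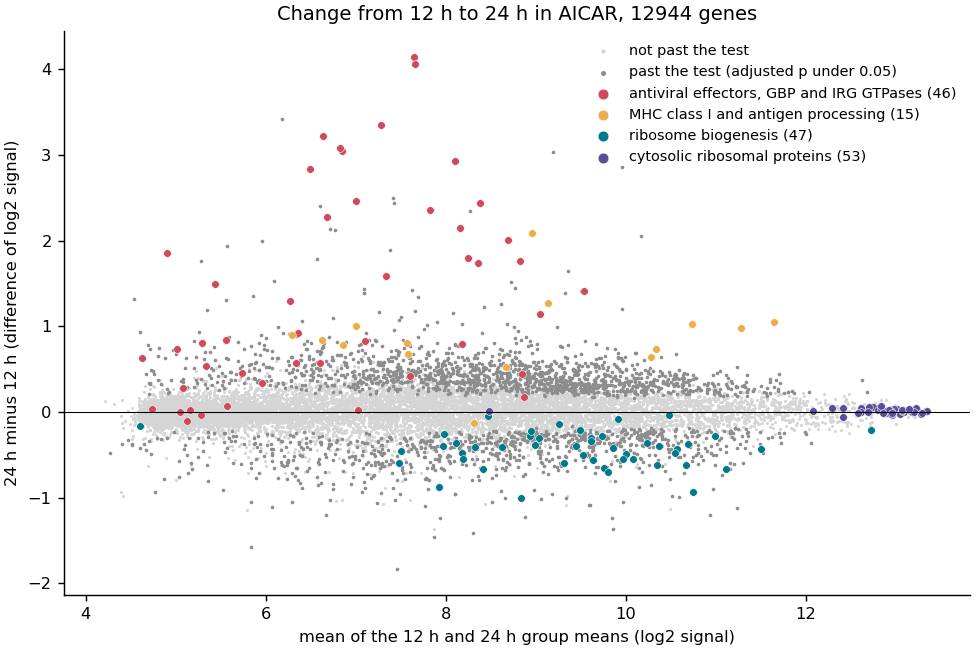
Change from 12 h to 24 h (difference of log2 signal, y axis) against the mean of both group means (log2 signal, x axis) for the 12944 genes tested; grey points are all genes, darker where they passed the test, and colours mark 4 gene groups. The antiviral and GTPase genes spread upward to 4.15, the ribosome biogenesis genes lie below 0 and the ribosomal protein genes lie along 0.

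The genes that rose most between 12 h and 24 h were nearly all known interferon-induced genes. Ifit1, whose protein binds foreign RNA lacking proper caps, read 5.41, 5.66 and 5.64 at 12 h and 9.44, 10.01 and 9.70 at 24 h, a rise of 4.15 ± 0.14 (17.7-fold, adjusted p = 3.97e-12). Rtp4, a receptor transporter with antiviral activity, went from 5.64, 5.63 and 5.60 to 9.48, 9.86 and 9.70 (4.06 ± 0.10, 16.7-fold). In both genes the lowest 24 h array stood far above the highest 12 h array. Rsad2, which encodes viperin, an enzyme that makes a chain-terminating nucleotide, read 5.48, 5.56 and 5.75 and then 8.59, 9.17 and 9.09 (3.35 ± 0.18, 10.2-fold), and all 3 of its tested probe sets rose. Ifit3, a partner of IFIT1, rose by 3.05 ± 0.10 (8.29-fold). Gbp3, a guanylate-binding GTPase, went from 4.99, 5.42 and 4.67 to 8.10, 8.44 and 8.21, with a 12 h mean of 5.03, below background. The immunity-related GTPase gene Irgm2 rose by 3.08 ± 0.11 (8.45-fold). Further down the 15 largest rises stood Xaf1, a pro-apoptotic interferon target (2.93), the chemokine gene Cxcl10 (2.86), Trim30d (2.84), Samd9l (2.50), the ADP-ribosyltransferase gene Parp14 (2.46), Apol9a (2.44), the RNA sensor gene Ifih1 (2.44) and Trim12c (2.40). As probe-set means, which here bring in dim probe sets, 5 of the 15 came out more than 1.5 times smaller but still rose: Rtp4 (2.23), Xaf1 (1.66), Trim30d (1.15), Parp14 (1.31) and Trim12c (1.27).

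**Figure D2:**
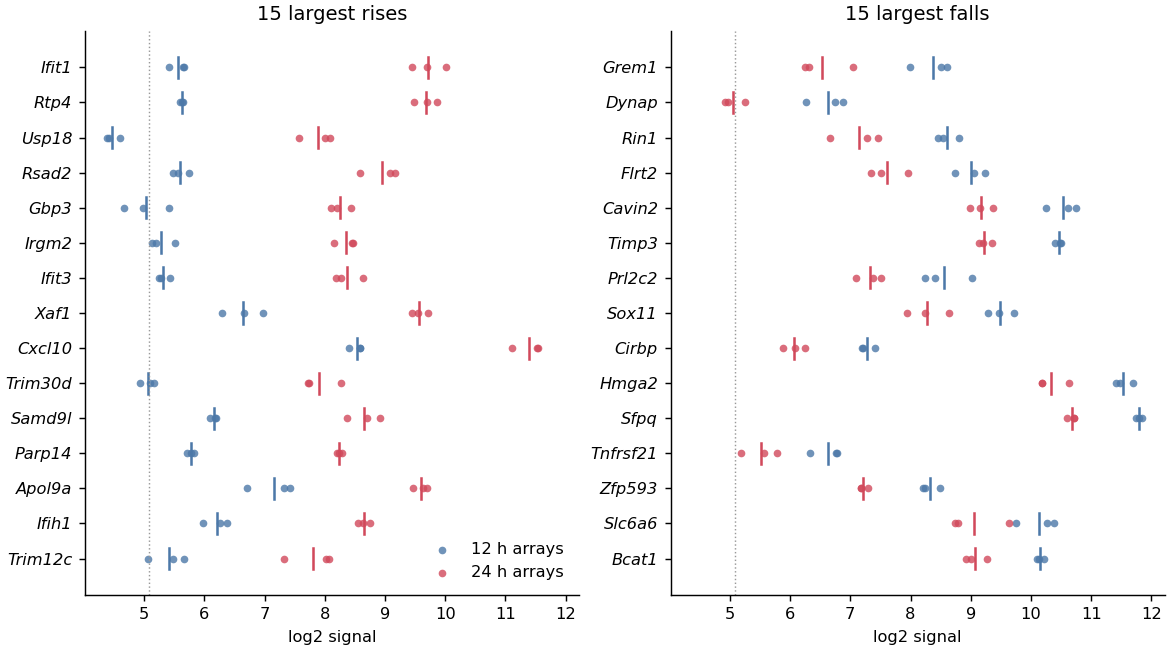
Log2 signal (x axis) on each of the 3 arrays at 12 h (blue) and at 24 h (red) for the 15 largest rises and the 15 largest falls; short bars are group means and the dotted line is the background level of 5.08. In each gene the 3 arrays at 24 h lie apart from the 3 at 12 h, which was part of how these genes were chosen.

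The promoters of these genes are shown because nearly all hold the core letters of the ISRE. RefSeq windows (250 bases before to 50 after each transcript start, GRCm38.p6) were found for 12 of the 15 largest rises, and 11 of them held GAAANNGAA on either strand (91.7%); the exception was Xaf1. Among the 15 largest falls 11 had a window and 0 held it. Of all tested genes 10401 had a window and 846 held it (8.13%). The other motifs counted on both strands were the gamma-activated site TTCNNNGAA, held by 1 of the 12 and by 8.42% of all, CCAAT, by 6 of the 12 and 42.6%, and the E-box CACGTG and the E2F letters TTTGGCGC or TTTCGCGC, by 0 of the 12 and by 11.3% and 1.71%. Below, the stretch around the matches is given 5′ to 3′ in the direction of the gene, with the matched letters in capitals; a run that starts with TTC is a match on the opposite strand.
Ifit1 (chr19:34640755-34640838, plus strand): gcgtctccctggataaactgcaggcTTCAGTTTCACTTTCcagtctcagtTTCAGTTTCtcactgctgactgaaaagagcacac
Ifit3 (chr19:34583349-34583460, plus strand): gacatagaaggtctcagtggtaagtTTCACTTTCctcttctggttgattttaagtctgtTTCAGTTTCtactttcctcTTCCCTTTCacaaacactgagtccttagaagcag
Rsad2 (chr12:26456538-26456596, minus strand): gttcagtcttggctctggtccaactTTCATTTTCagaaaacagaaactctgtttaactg
Gbp3 (chr3:142559975-142560039, plus strand): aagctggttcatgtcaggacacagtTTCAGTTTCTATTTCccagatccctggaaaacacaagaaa
Irgm2 (chr11:58214888-58214946, plus strand): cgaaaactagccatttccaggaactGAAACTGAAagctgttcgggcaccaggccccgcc
Cxcl10 (chr5:92349069-92349127, minus strand): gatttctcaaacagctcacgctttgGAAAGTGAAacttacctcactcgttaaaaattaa

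Ifit1 and Ifit3 each held 3 matches, of which a pair overlap in Ifit1, and Gbp3 held 2 that overlap. All lay within 250 bases before the start. Across gene groups the share with a match was 7 of 8 for the GTPase genes (87.5%) and 12 of 28 for the antiviral effectors (42.9%). Among other interferon-linked lists it was 3 of 4 for the ligands, 6 of 15 for the nucleic acid sensors, 4 of 13 for MHC class I and antigen processing (30.8%), 1 of 5 for the feedback inhibitors, 2 of 12 for chemokines and cytokines (16.7%), 2 of 13 for JAK, STAT and IRF signalling (15.4%) and 0 of 5 for the receptors. Among genes that rose at least 2-fold it was 23 of 52 (44.2%), and among genes that fell at least 2-fold it was 0 of 18. A match is a description of the letters and not evidence of binding, and a window without one says nothing about the factor.

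Among the interferon ligands, 4 genes of a list of 10 were tested and 0 passed (limma; 0 also at an unadjusted p under 0.05). The gene of interferon beta, Ifnb1, read 4.78, 4.83 and 4.92 at 12 h and 4.96, 4.94 and 5.17 at 24 h, a difference of 0.18 ± 0.091 (adjusted p = 0.227), and 5 of the 6 arrays lay below the background level. The 3 arrays of Ifnb1 at 24 h all lay above the 3 at 12 h, as in 19.1% of all genes. Ifna4 differed by 0.12 ± 0.12, Ifna1 by 0.0086 ± 0.095 and Ifna2 by -0.012 ± 0.14. Ifna1 was below background at both times (4.77 and 4.78), and Ifna4 at 12 h (5.03). Ifna5, Ifna11 and Ifng were left out by the filter. At such levels an unchanged signal does not show an unchanged transcript. Of the 6 receptor genes tested 3 rose. Ifngr1, a chain of the interferon gamma receptor, went from 8.74, 8.51 and 8.45 to 9.11, 9.24 and 9.05 (0.56 ± 0.11, adjusted p = 0.00232), and Il10rb, shared by the receptors of interleukin-10 and interferon lambda, rose by 0.57 ± 0.093 (0.34 as a probe-set mean). Ifnlr1, the other lambda chain, rose by 0.37 ± 0.10, but did not pass without any single one of AICAR 12h replicates 1 or 2 and AICAR 24h replicates 2 or 3. Both chains of the type I receptor were within their spread: Ifnar1 differed by 0.072 ± 0.13 and Ifnar2 by 0.056 ± 0.10. Ifngr2 differed by 0.048 ± 0.45 and spread widely at 12 h (8.44, 7.82 and 6.79). Another probe set of Ifngr2 rose by 0.57 (adjusted p = 0.000155), and the probe-set mean was 0.31 (adjusted p = 0.462).

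Of 13 genes of JAK, STAT and IRF signalling tested, 6 rose and 1 fell, with a median change of 0.43 against 0.016 for all genes. Irf9, the DNA-binding part of the complex that recognises the ISRE, read 5.90, 5.74 and 5.46 at 12 h and 7.77, 7.90 and 7.82 at 24 h (2.13 ± 0.11, 4.36-fold, adjusted p = 4.74e-10). The groups did not overlap, and the arrays of each lay close together beside the gap between them. Stat2, its partner, rose by 0.77 ± 0.12, the kinase gene Tyk2 by 0.43 ± 0.10, and the interferon regulatory factor genes Irf5, Irf1 and Irf7 by 0.88 ± 0.12, 0.78 ± 0.12 and 0.70 ± 0.10. Irf7, the amplifier of the type I response, started below background (4.97). Irf3, which is activated by the nucleic acid sensors and not by interferon, fell by 0.25 ± 0.079 (adjusted p = 0.0393), but did not pass without any one of AICAR 12h replicates 1, 2 and 3 or AICAR 24h replicates 2 and 3, nor with median centring. Irf2 (0.66 ± 0.24, adjusted p = 0.0776), Stat3 (0.20 ± 0.081), Stat6 (0.22 ± 0.093), Jak2 (0.095 ± 0.089), Irf8 (-0.048 ± 0.073, below background) and Jak1 (-0.064 ± 0.16) did not pass, but the probe sets of Jak1 disagreed: another rose by 0.33 (adjusted p = 0.0292) and the remaining one read -1.43 (adjusted p = 0.377).

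Among 8 feedback inhibitors of the pathway, 1 rose, a share near the 11.8% of all genes. Usp18, which removes ISG15 from proteins and blocks the type I receptor, read 4.39, 4.41 and 4.60 at 12 h, below background on every array, and 7.57, 8.08 and 8.00 at 24 h (3.42 ± 0.15, adjusted p = 1.09e-10). The suppressor of cytokine signalling genes Socs1, Socs2 and Socs3 differed by -0.056 ± 0.10, -0.11 ± 0.25 and -0.082 ± 0.11, the phosphatase genes Ptpn2, Ptpn6 and Ptpn11 by 0.16 ± 0.062, 0.16 ± 0.12 and 0.093 ± 0.079, and Pias1 by 0.052 ± 0.11. None of these 7 passed, but other probe sets of Pias1 and Ptpn2 did, with rises of 0.65 (adjusted p = 0.0286) and 0.25 (adjusted p = 0.0292).

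Sensors of foreign or misplaced nucleic acid rose with the effectors: 10 of 19 were higher and 0 lower (8 higher without replicate 3 of every group). Ifih1, which encodes the long double-stranded RNA sensor MDA5, went from 6.26, 6.38 and 5.98 to 8.56, 8.75 and 8.64 (2.44 ± 0.11, 5.43-fold). Ddx58, which encodes RIG-I, went from 8.77, 8.81 and 8.80 to 10.07, 10.21 and 10.33 (1.41 ± 0.078, 2.66-fold), with all 3 tested probe sets higher. Dhx58, the third helicase of that family, rose by 1.31 ± 0.11 from below background (0.50 as a probe-set mean). The ubiquitin ligase gene Trim25, needed for RIG-I signalling, rose by 2.13 ± 0.15, the endosomal receptor gene Tlr3 by 1.02 ± 0.14, and Adar, which edits double-stranded RNA, by 0.55 ± 0.11. All 3 arrays at 24 h were above the 3 at 12 h in each of these genes, and in 13 of the 19 tested, against 19.1% of all genes.

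Antiviral effectors were tested for 35 genes (42 of the 50 listed were named on the array and 7 were left out by the filter), and 28 rose and 0 fell, 17 of them at least 2-fold. Their median change was 0.93, against 0.016 for all genes. Among those not yet described, Parp9, a partner of the ubiquitin ligase DTX3L, read 7.44, 7.31 and 7.29 and then 9.13, 9.25 and 9.06 (1.80 ± 0.075), and Ifi27 read 7.76, 7.66 and 7.62 and then 9.71, 9.75 and 9.61 (2.01 ± 0.087). In both genes, which were picked by the size of t, the spread within a group was small beside the gap between the groups. Guanylate-binding and immunity-related GTPases, which attack the membranes of intracellular pathogens, had 9 of 11 higher and 0 lower, with a median of 1.49. Gbp2 rose by 2.35 ± 0.17 (5.11-fold), Igtp by 2.15 ± 0.13 (4.44-fold), Irgm1 by 1.75 ± 0.089 (3.35-fold) and Tgtp1 by 1.49 ± 0.091 from below background (4.69). A gene was tested if any group mean exceeded 4.81, so a gene dim at 12 h could enter through its 24 h signal. Genes that stayed dim were left out. The counts and medians of any list may therefore lean towards changes, and those of the interferon-linked lists towards rises. Tested genes below 4.81 at 12 h include Tgtp1 here, Usp18 (4.47), Il15 (4.31) and Il6 (3.88). They also include Per2 (4.61), C1ra (4.44), Fas (4.47) and Gstm2 (4.60), which passed as rises.

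Of 15 genes of MHC class I and antigen processing, which display cytosolic peptides at the cell surface, 14 rose and 0 fell, with a median of 0.84. The classical heavy chain gene H2-K1 read 11.16, 10.95 and 11.25 at 12 h and 12.12, 12.18 and 12.22 at 24 h (1.05 ± 0.10, 2.07-fold), and all 4 of its tested probe sets were higher. H2-D1 rose by 0.98 ± 0.10 (0.45 as a probe-set mean) and H2-Q4 by 2.09 ± 0.22. These are near-identical family members, and the signal of one probe set may come partly from another gene. The peptide-loading gene Tapbp, which encodes tapasin, rose by 1.03 ± 0.091, the immunoproteasome subunit gene Psmb8 by 1.27 ± 0.12 (0.65 as a probe-set mean) and the proteasome activator gene Psme1 by 0.73 ± 0.076.

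Chemokine and cytokine genes followed in part, with 8 of 18 higher and 1 lower. Cxcl10, which attracts T cells, read 8.59, 8.59 and 8.41 at 12 h and 11.12, 11.52 and 11.54 at 24 h (2.86 ± 0.13, 7.27-fold). Ccl5, another attractant of T cells, read 6.97, 7.21 and 7.10 and then 9.31, 9.51 and 9.49 (2.34 ± 0.11, 5.08-fold). In both genes the groups were far apart. Cxcl11 rose by 1.11 ± 0.18 (0.69 as a probe-set mean) and Ccl7 by 0.65 ± 0.12. Il6 rose by 1.31 ± 0.13, from 3.88 to 5.20, with replicate 2 alone (5.66) well above background at 24 h. Il15 (0.78 ± 0.10) also started below background. Of 17 NF-kB components and targets 7 rose and 1 fell. Relb, a subunit of the alternative NF-kB dimer, went from 7.08, 7.28 and 6.84 to 8.35, 8.31 and 8.08 (1.18 ± 0.12, 2.26-fold), Rel rose by 0.52 ± 0.072, and Nfkbia, the inhibitor that NF-kB itself induces, by 0.64 ± 0.13. Ptgs2, which encodes the inducible prostaglandin synthase, went the other way, from 9.07, 9.32 and 9.09 to 8.36, 8.20 and 7.90 (a fall by 1.01, adjusted p = 1.82e-05).

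**Figure D3:**
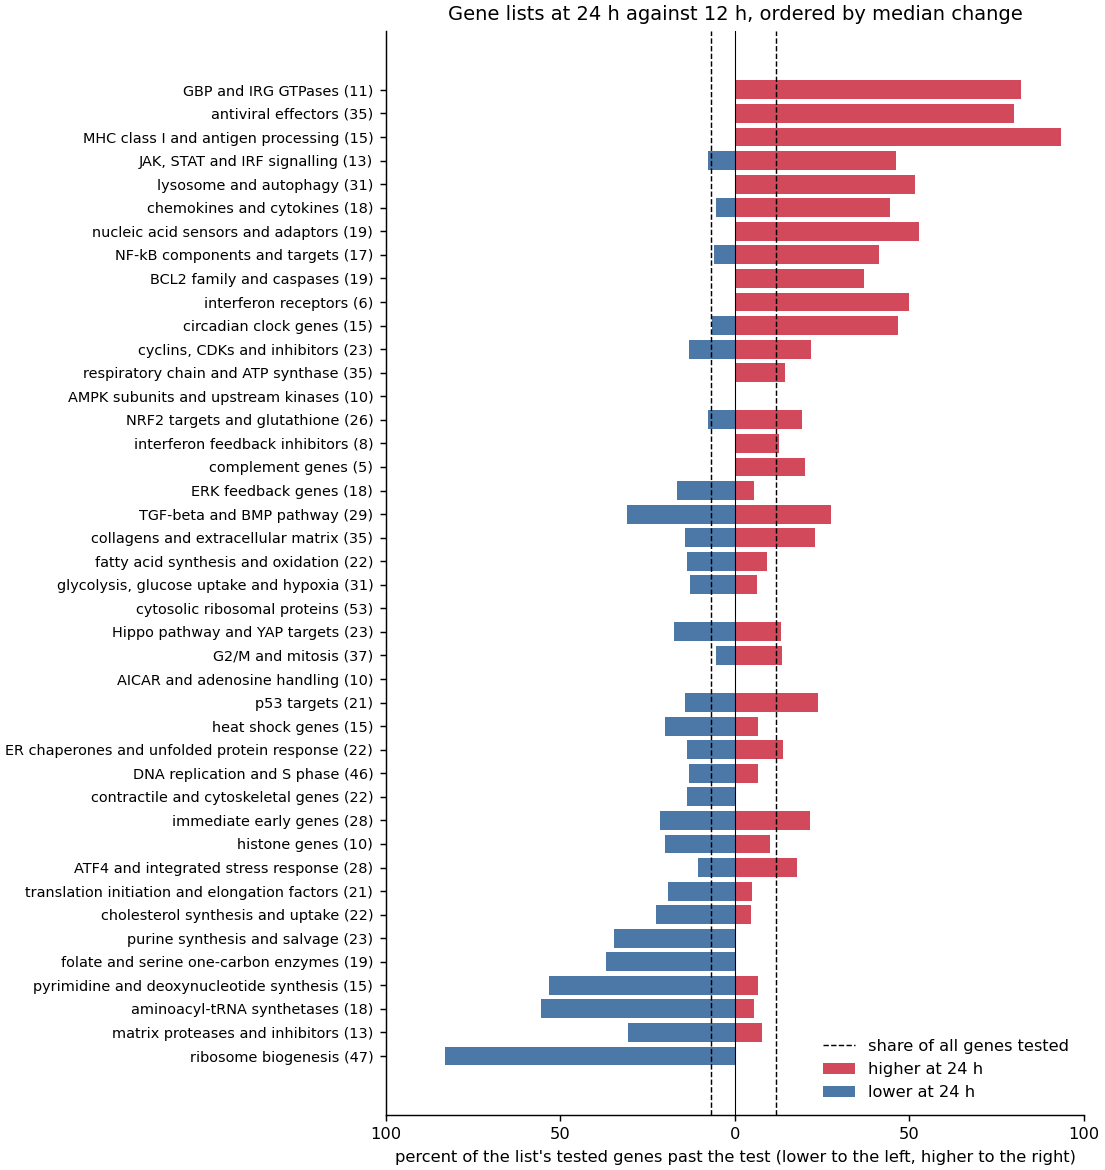
Percent of each list's tested genes (number in parentheses; lists of at least 5) that passed the test and were lower (blue, to the left) or higher (red, to the right) at 24 h, ordered by the median change; dashed lines give the shares of all genes tested, 6.79% and 11.8%. The GTPase, antiviral and MHC class I lists stand at the top with up to 14 of 15 genes higher, interferon receptors and feedback inhibitors lie further down among other lists, and ribosome biogenesis at the bottom with 39 of 47 lower.

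Ribosome biogenesis genes fell. Of 47 genes tested 39 fell and 0 rose, with a median of -0.41, and the falls were individually modest. Rrp12, needed for export of both ribosomal subunits, read 9.31, 9.52 and 9.19 at 12 h and 8.43, 8.48 and 8.09 at 24 h (a fall by 1.01 ± 0.10, adjusted p = 3.85e-06). Polr1e, a subunit of RNA polymerase I, which makes ribosomal RNA, went from 8.33, 8.45 and 8.31 to 7.55, 7.73 and 7.18 (a fall by 0.88 ± 0.11). The groups were separate in both. Heatr1, a part of the small-subunit processome, fell by 0.67 ± 0.068 (by 0.31 as a probe-set mean), the nucleolar chaperone gene Nolc1 by 0.62 ± 0.065, Bysl by 0.65 ± 0.074, and Gar1, a protein of the RNA-guided pseudouridylation complex, by 0.55 ± 0.056. The count was 34 without replicate 3 of every group and 27 in a fit of these 6 arrays alone. The E-box was held by the windows of 9 of 42 of these genes (21.4%), against 11.3% of all tested genes. This was not particular to the list. The share was higher in some others, such as lysosome and autophagy (44.4%) and circadian clock genes (38.5%), and lower in some, such as cytosolic ribosomal proteins (14.3%).

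The 53 tested genes of the cytosolic ribosomal proteins themselves did not follow: 0 passed in either direction (limma; 0 at an unadjusted p under 0.05), their changes lay between -0.063 and 0.067, and their median was 0.013. Their signals are near the top of the range, with a median of 12.95 in both groups against a highest value of 13.46 in the table. Rps15 read 12.81, 12.73 and 12.85 and then 12.84, 12.86 and 12.90 (0.067 ± 0.080), and Rpl27 differed by -0.063 ± 0.068, with overlapping arrays. Of 18 aminoacyl-tRNA synthetase genes, whose products charge tRNAs with amino acids, 10 fell and 1 rose. The falls numbered 6 without AICAR 24h replicate 2 or without replicate 3 of every group, 5 with median centring, and 4 in a fit of these 6 arrays alone. Mars1 read 10.95, 10.95 and 10.93 and then 10.61, 10.58 and 10.59 (a fall by 0.35 ± 0.059), Iars fell by 0.47 ± 0.087 and Nars by 0.40 ± 0.068. Of 21 translation factor genes 4 fell and 1 rose, and the falls numbered 2 without any one of AICAR 12h replicates 1 and 2 and AICAR 24h replicates 1 and 3. Eif4ebp1, an inhibitor of cap-dependent initiation, fell by 0.50 ± 0.069 (by 0.31 as a probe-set mean).

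Among transcripts for nucleotide synthesis, into which ZMP feeds, more fell than rose. In purine synthesis and salvage 8 of 23 genes fell and 0 rose, with a median of -0.15. Gart, which catalyses several early steps of the pathway, read 10.07, 9.91 and 10.05 at 12 h and 9.38, 9.31 and 9.19 at 24 h (a fall by 0.71 ± 0.064, adjusted p = 1.12e-06), with all 4 tested probe sets lower. Adsl, which makes ZMP in the pathway, read 9.51, 9.60 and 9.54 and then 8.98, 8.96 and 8.81 (a fall by 0.64 ± 0.058). The arrays of both genes were well separated. Ppat, the committed first step, fell by 0.59 ± 0.089 (by 0.37 as a probe-set mean), the AMP deaminase gene Ampd2 by 0.48 ± 0.058 and the adenine salvage gene Aprt by 0.28 ± 0.071 (not past the test without AICAR 24h replicate 2). The count was 6 without replicate 3 of every group and 4 in a fit of these 6 arrays alone. Genes that take up or phosphorylate AICAR and adenosine did not pass (0 of 10, limma; 2 at an unadjusted p under 0.05), among them Adk, the kinase that makes ZMP from AICAR, which read 11.35, 11.37 and 11.35 and 11.31, 11.28 and 11.29 (-0.065 ± 0.060), and the transporter gene Slc29a3 (-0.26 ± 0.11, adjusted p = 0.121). The 10 tested genes of AMPK subunits and upstream kinases likewise had 0 past the test (3 at an unadjusted p under 0.05): beside the catalytic subunits, Prkab1 differed by 0.19 ± 0.093, Prkab2 by 0.14 ± 0.11, Prkag1 by -0.10 ± 0.072, Prkag2 by -0.077 ± 0.14, Stk11, which encodes LKB1, by 0.061 ± 0.086, Camkk2 by 0.13 ± 0.12, Cab39 by 0.17 ± 0.076 and Strada by -0.021 ± 0.077.

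Pyrimidine and deoxynucleotide synthesis had 8 of 15 genes lower and 1 higher. Dctd, which supplies dUMP for thymidylate, went from 8.08, 8.28 and 8.27 to 7.46, 7.58 and 7.23 (a fall by 0.79 ± 0.080), and Ctps, a CTP synthase, fell by 0.36 ± 0.059, while its paralog Ctps2 rose by 0.44 ± 0.082 (0.18 as a probe-set mean). Dtymk, the thymidylate kinase gene, fell by 0.50 ± 0.076 and Umps, the last enzyme of UMP synthesis, by 0.38 ± 0.068, but neither passed as a probe-set mean (-0.19 and -0.16). In the one-carbon pathway, which runs on folate and serine, 7 of 19 genes fell and 0 rose (4 without replicate 3 of every group). Mthfd1l read 9.72, 9.66 and 9.76 and then 9.21, 9.15 and 9.10 (a fall by 0.56 ± 0.059), the serine synthesis gene Psat1 fell by 0.48 ± 0.081, the cytosolic folate enzyme gene Mthfd1 by 0.45 ± 0.071 and the folate carrier gene Slc19a1 by 0.50 ± 0.094.

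**Figure D4:**
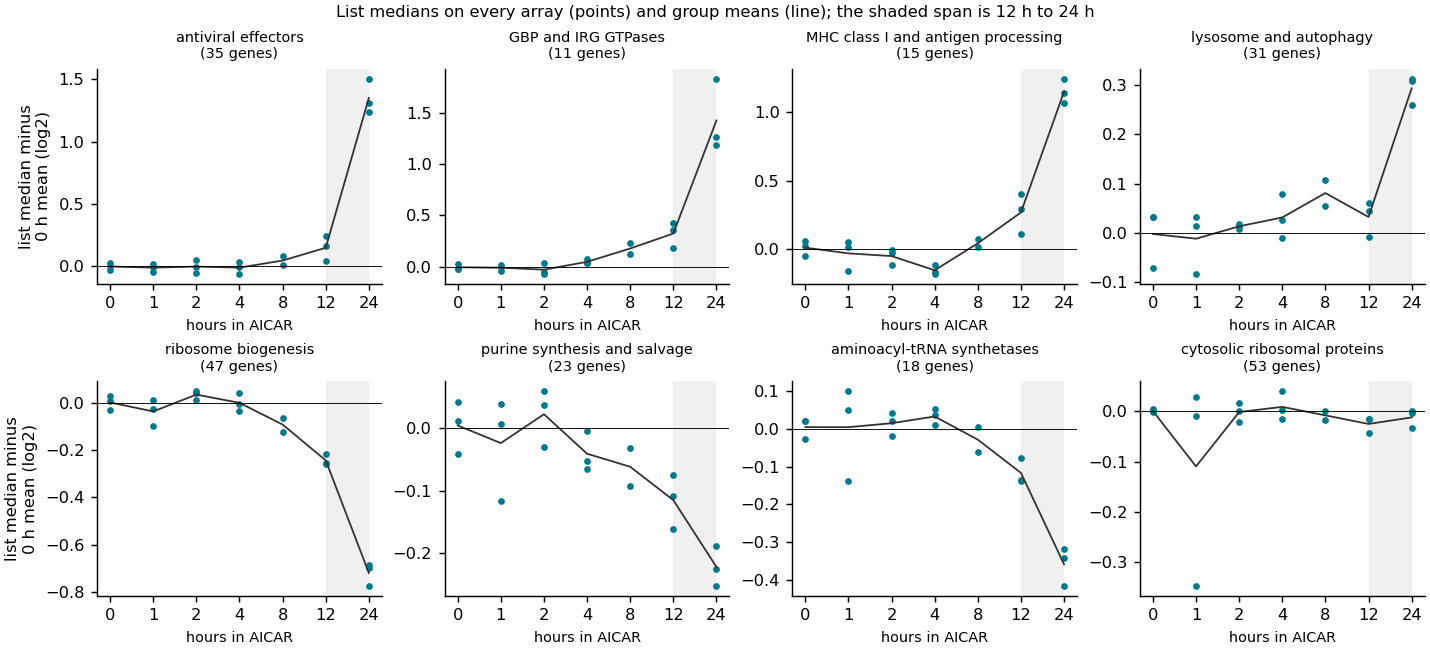
Median of each list's tested genes on every array, as a difference from the 0 h mean (log2, y axis), against hours in AICAR (x axis, evenly spaced times); points are arrays, lines join group means and the shaded span is 12 h to 24 h. The antiviral, GTPase and lysosome lists rise mostly inside the shaded span, the ribosome biogenesis list falls through it, and the ribosomal protein list ends near 0, with 1 array at 1 h well below.

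In the lysosome and autophagy list 16 of 31 genes rose, by small amounts, and 0 fell, against 11.8% and 6.79% of all genes, with a median of 0.32, and the count was 6 in a fit of these 6 arrays alone. Flcn, whose protein controls lysosomal mTORC1 signalling, read 8.08, 7.96 and 7.72 at 12 h and 8.56, 8.62 and 8.48 at 24 h (0.63 ± 0.11). Gaa, the lysosomal glucosidase gene, read 8.61, 8.62 and 8.37 and then 9.09, 9.10 and 9.16 (0.58 ± 0.10). Both were separate between the groups. The calcium channel gene Mcoln1 rose by 0.59 ± 0.11 and the autophagy gene Gabarapl1 by 0.47 ± 0.086. Fnip1, a partner of folliculin, rose by 0.63 ± 0.065 by its probe set with the highest mean, but did not pass as a probe-set mean (0.42) or without probe sets that can match several transcripts (0.17).

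Immediate early genes, the first to answer a growth or stress signal, split evenly: of 28 tested 6 rose and 6 fell, and without replicate 3 of every group 5 rose and 3 fell. Egr1, a zinc finger transcription factor, read 9.28, 9.25 and 8.89 at 12 h and 11.19, 11.21 and 11.18 at 24 h (2.06 ± 0.15, 4.16-fold, adjusted p = 8.46e-08). Its 24 h arrays nearly coincided, well above all of the 12 h arrays. Atf3, a stress-induced transcription factor that is also in the ATF4 list, went from 8.25, 7.90 and 7.72 to 9.22, 9.76 and 9.46 (1.52 ± 0.14, 2.87-fold). Fos rose by 1.06 ± 0.12 and Maff by 0.80 ± 0.077. Klf4, a Kruppel-like factor, fell by 0.70 ± 0.10, and Ccn2, a matricellular protein that YAP and TGF-beta induce, went from 10.90, 11.18 and 11.19 to 10.13, 10.13 and 10.03 (a fall by 0.99 ± 0.10). Of 18 ERK feedback genes 3 fell and 1 rose, against 6.79% and 11.8% of all genes. Among the falls were Phlda1 (a fall by 0.78 ± 0.078) and the phosphatase gene Dusp4 (a fall by 0.81 ± 0.20, not past the test without replicate 3 of every group).

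In the ATF4 and integrated stress response list 5 of 28 genes rose and 3 fell, against 11.8% and 6.79% of all genes. Besides Atf3, the phosphatase regulator gene Ppp1r15a rose by 0.70 ± 0.12 and Nupr1 by 0.53 ± 0.11. The 3 that fell were the cysteine synthesis gene Cth, from 7.88, 8.11 and 7.86 to 7.01, 6.96 and 6.80 (a fall by 1.03 ± 0.079), the asparagine synthetase gene Asns (-0.40) and the amino acid transporter gene Slc7a5 (-0.53). Without AICAR 12h replicate 3 the falls numbered 5. Of 15 heat shock genes 3 fell and 1 rose. Hsph1 fell by 0.57 ± 0.068 and the inducible Hspa1b, which has a near-identical neighbour whose transcript its probes may also read, by 0.50 ± 0.090.

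The largest falls came from genes of varied function. Grem1, a secreted inhibitor of bone morphogenetic proteins, read 8.51, 8.61 and 7.99 at 12 h and 7.04, 6.31 and 6.25 at 24 h (a fall by 1.83 ± 0.32, 3.56-fold, adjusted p = 0.000719), with a wide spread within each group but no overlap between them. Dynap fell by 1.58 ± 0.16, to a mean of 5.05, below background. Rin1, an effector of Ras, read 8.46, 8.80 and 8.54 and then 7.47, 7.28 and 6.67 (a fall by 1.46 ± 0.15). Cavin2, a coat protein of caveolae, read 10.25, 10.62 and 10.75 and then 9.37, 9.15 and 8.99 (a fall by 1.37 ± 0.12), with all 3 tested probe sets lower, and the caveolin gene Cav1 fell by 0.60 ± 0.073. The adhesion gene Flrt2 fell by 1.41 ± 0.17, the chromatin protein gene Hmga2 by 1.20 ± 0.12, the cold-inducible RNA-binding protein gene Cirbp by 1.20 ± 0.10, the splicing factor gene Sfpq by 1.12 ± 0.073 and the branched-chain aminotransferase gene Bcat1 by 1.08 ± 0.083. Prl2c2, a prolactin family gene, fell by 1.24 ± 0.16. Sox11 fell by 1.22 ± 0.15 and the taurine transporter gene Slc6a6 by 1.08 ± 0.25, with probe-set means of -0.75 and -0.65. Tnfrsf21 (-1.11) and Zfp593 (-1.10) did not pass without probe sets that can match several transcripts (-0.19 and -0.17). Their probe-set means were -0.65 and -0.63.

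Genes of the matrix and its control moved in both directions. Timp3, an inhibitor of matrix metalloproteinases, read 10.49, 10.50 and 10.40 at 12 h and 9.35, 9.20 and 9.13 at 24 h (a fall by 1.24 ± 0.082, adjusted p = 2.52e-08), with all 4 tested probe sets lower. The proteoglycan gene Vcan fell by 1.06 ± 0.20 (by 0.55 as a probe-set mean) and the tenascin gene Tnc by 0.70 ± 0.12. In contrast Ogn, a small leucine-rich proteoglycan, went from 4.84, 5.24 and 4.81, near or below background, to 7.10, 7.07 and 6.70 (1.99 ± 0.16). Col6a2 rose by 0.92 ± 0.084, Col6a1 by 0.68 ± 0.13 and Col3a1 by 0.69 ± 0.17 (0.52, not past the test, without AICAR 24h replicate 1). In the list of collagens and extracellular matrix 8 of 35 genes rose and 5 fell (3 fell without AICAR 12h replicate 2). Of 29 genes of the TGF-beta and BMP pathway 8 rose and 9 fell. The rises numbered 5 without AICAR 24h replicate 1 or 2 and 2 in a fit of these 6 arrays alone. The BMP targets Id2 and Id3 fell by 1.00 ± 0.12 and 0.88 ± 0.14, and the activin antagonist gene Fst by 0.81 ± 0.13, to below background, while the receptor gene Tgfbr1 rose by 0.54 ± 0.074 (0.24 as a probe-set mean) and Fstl1 by 0.43 ± 0.062. Of 23 genes of the Hippo pathway and YAP targets 3 rose and 4 fell, against 11.8% and 6.79% of all genes. Without AICAR 12h replicate 1 or AICAR 24h replicate 2, 1 of them rose. The kinase gene Lats1 rose by 0.45 ± 0.072, its paralog Lats2 differed by 0.055 ± 0.15 (another of its probe sets fell by 0.93, adjusted p = 0.011, and the probe-set mean was -0.25), and Ccn1 and Amotl2 fell by 0.42 ± 0.10 and 0.34 ± 0.074.

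Genes of S phase and of mitosis shifted little as medians. Shares can be read against the 11.8% of all genes that rose and the 6.79% that fell. The G2/M list lay near both, and the other lists of this paragraph departed from them on small counts. Of 46 genes of DNA replication and S phase 3 rose and 6 fell, and in G2/M and mitosis 5 of 37 rose and 2 fell, with medians of -0.028 and 0.0039. Without AICAR 12h replicate 2 or AICAR 24h replicate 3 the S phase falls numbered 2 and the G2/M falls 1, and without the latter the S phase rises numbered 5. Rrm2, the ribonucleotide reductase subunit, read 11.01, 11.10 and 11.21 and then 10.52, 10.51 and 10.47 (a fall by 0.60 ± 0.076), and Pold2 fell by 0.44 ± 0.069. Ccnb2, a mitotic cyclin, rose by 0.40 ± 0.068 and Hmmr by 0.39 ± 0.082. Foxm1, a driver of mitotic genes, fell by 0.65 ± 0.10 by its probe set with the highest mean, whereas 2 of its 3 tested probe sets rose and the probe-set mean, which takes in an untested one, differed by 0.094 (adjusted p = 0.312). Among cyclins, CDKs and their inhibitors 5 of 23 rose and 3 fell. The rises numbered 3 without AICAR 12h replicate 3 or AICAR 24h replicate 2, and the falls 1 without AICAR 12h replicate 2. Ccnd1, the D-type cyclin, fell by 0.61 ± 0.11. The CDK inhibitor gene Cdkn1c fell by 0.85 ± 0.22, which did not pass without any one of AICAR 12h replicates 1 and 2 and AICAR 24h replicate 3. Cdkn1a, which encodes the CDK inhibitor p21, rose by 0.30 ± 0.10 (adjusted p = 0.0432), but of the 9 arrays left out in turn it passed only without AICAR 24h replicate 1 or 0h replicate 3, and as a probe-set mean it differed by -0.019. Of 21 p53 targets 5 rose and 3 fell (3 rose without any one of AICAR 12h replicates 2 and 3 and AICAR 24h replicates 2 and 3). Perp went from 7.58, 7.57 and 7.48 to 6.81, 6.82 and 6.33 (a fall by 0.89 ± 0.13), and Gadd45a from 6.96, 6.73 and 6.32 to 7.33, 7.66 and 7.14 (0.71 ± 0.14). Of 19 tested members of the BCL2 family and caspases 7 rose and 0 fell, 3 in a fit of these 6 arrays alone. Among them were Mlkl, the executor of necroptosis (0.35 ± 0.063), Casp12 (0.45 ± 0.10; 0.70 as a probe-set mean) and the anti-apoptotic Mcl1 (0.33 ± 0.079).

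Circadian clock genes had 7 of 15 higher and 1 lower. The rises numbered 4 without AICAR 12h replicate 3, and 3 without either of AICAR 24h replicates 1 and 2 or in a fit of these 6 arrays alone. Nr1d2, a nuclear receptor that represses Arntl, read 9.42, 9.30 and 9.34 at 12 h and 10.62, 10.62 and 10.42 at 24 h (1.20 ± 0.10, 2.3-fold; 0.66 as a probe-set mean). Tef, a clock output factor, went from 8.43, 8.22 and 8.37 to 9.05, 9.03 and 8.97 (0.68 ± 0.071; 0.33 as a probe-set mean), and Bhlhe40 rose by 0.49 ± 0.10. Arntl, the activator itself, went from 7.84, 7.98 and 7.67 to 7.55, 7.52 and 7.24 (a fall by 0.39 ± 0.10), and failed the test without AICAR 12h replicate 2 or AICAR 24h replicate 3. Clock rose by 0.40 ± 0.10, did not pass without any one of AICAR 12h replicate 3 and AICAR 24h replicates 1 and 2, and as a probe-set mean it differed by -0.11.

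In central metabolism Hk2, the hexokinase of glycolysis, read 9.67, 9.53 and 9.48 and then 8.76, 8.53 and 8.35 (a fall by 1.01 ± 0.089, 2.02-fold), and the glucose transporter gene Slc2a1 fell by 0.49 ± 0.068. Txnip and Arrdc4, arrestin-like genes that respond to glucose and restrain its uptake, rose by 1.15 ± 0.13 (0.68 as a probe-set mean) and 0.72 ± 0.14. In that list of glycolysis, glucose uptake and hypoxia 2 of 31 rose and 4 fell. This and the next counts stand against 11.8% of all genes higher and 6.79% lower. Of 22 genes of cholesterol synthesis and uptake 5 fell and 1 rose, with Fdft1 (a fall by 0.56 ± 0.074), Sqle (0.51), Mvd (0.66) and Idi1 (0.43) among the falls. Of 22 genes of fatty acid metabolism 3 fell and 2 rose: the synthesis genes Elovl6 (-0.92), Fasn (-0.54, not past the test without replicate 3 of every group) and Acaca (-0.38) fell, and the oxidation genes Acadvl (0.55) and Acadl (0.25) rose. Acaca did not pass without any one of AICAR 12h replicates 1 and 2 and AICAR 24h replicates 2 and 3, and Acadl did not pass as a probe-set mean (0.12). Of 35 genes of the respiratory chain and ATP synthase 5 rose, near the 11.8% of all genes, and 0 fell, with a median of 0.11. Sdha, a subunit of complex II, rose by 0.33 ± 0.073 (0.066, not past the test, as a probe-set mean). Leaving out any single array of the 6 lowered the count to between 1 and 3, and a fit of these 6 arrays alone called 0. In 20 of the 35 genes all 3 arrays at 24 h lay above the 3 at 12 h, against 19.1% of all genes. In 1 they lay wholly below, against 11.9%.

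Whether the second 12 h differed from the first was tested directly, as the change from 12 h to 24 h minus the change from 0 h to 12 h. Both spans use the 12 h arrays, so their changes are given side by side and no overlap between them is counted. The spans differed for 946 of 12944 genes (7.31%), with 494 more positive in the second (3.82%) and 452 more negative (3.49%). Of these, 546 also changed between 12 h and 24 h. Over probe sets 1374 differed (6.72%), 752 more positive (3.68%) and 622 more negative (3.04%), and with the replicate number as a block 2354 did. The count fell to 644 without AICAR 12h replicate 1 and to 892 without AICAR 12h replicate 2. The split turned to 439 positive and 772 negative without AICAR 12h replicate 3, and was 916 and 478 without AICAR 24h replicate 3, 828 and 451 without 0h replicate 3, and 582 and 310 without AICAR 12h replicate 2.

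Several of the interferon genes that rose most had not passed the test in the first 12 h. They were chosen for their rise from 12 h to 24 h, which the difference between the spans contains. The size and adjusted p of that difference are therefore in part a result of the choice. Rsad2 changed by 0.23 from 0 h to 12 h (adjusted p = 0.435) and by 3.35 from 12 h to 24 h, a difference between the spans of 3.12 ± 0.31 (adjusted p = 1.04e-05). Cxcl10 changed by 0.072 and then by 2.86 (difference 2.79 ± 0.23), Ifit3 by 0.059 and then 3.05, and Usp18 by 0.12 and then 3.42. Ifit1 had already risen by 0.84 at 12 h (adjusted p = 0.000333) and Rtp4 by 0.75, and their second 12 h exceeded the first by 3.31 ± 0.24 and 3.30 ± 0.17. A few started earlier. Apol9a rose by 1.63 and then by 2.44, with a difference of 0.81 ± 0.31 that did not pass (adjusted p = 0.149), and Tlr3 rose by 1.14 and then by 1.02 (difference -0.12 ± 0.23). The second span exceeded the first in 18 of the 35 antiviral effectors, 7 of the 11 GTPase genes and 8 of the 15 MHC class I genes, against 3.82% of all genes.

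Ribosome biogenesis had a median of -0.26 in the first 12 h and -0.41 in the second, and the spans differed for 5 of 47 genes, all more negative in the second, against 3.49% of all genes. Rrp12 changed by -0.10 and then by -1.01 (difference -0.91 ± 0.17), whereas Heatr1 changed by -0.42 and then by -0.67 (difference -0.25 ± 0.12, adjusted p = 0.273). Txnip rose by 1.17 and then by 1.15, with a difference of -0.013 ± 0.23. Id2 fell by 0.92 and by 1.00, and Ptgs2 by 1.14 and by 1.01.

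Some genes rose over the first 12 h and fell over the second. The means at 0, 12 and 24 h do not show when the turn came. Genes here and in the next paragraph were in part named for a large difference between the spans. The size and adjusted p of that difference are then no separate evidence of a turn. Klf4 rose by 1.76 in the first 12 h and fell by 0.70 in the second, a difference of -2.45 ± 0.17 (adjusted p = 3.48e-07); it read 10.58, 10.67 and 10.35 at 12 h and 9.82, 9.90 and 9.79 at 24 h, still above the 0 h mean of 8.78. Klf2, its relative, rose by 1.49 and fell by 0.95. Gart rose by 0.38 and fell by 0.71, Slc2a1 rose by 0.36 and fell by 0.49, and Timp3 rose by 0.35 and fell by 1.24, ending below its 0 h mean of 10.11. Ampd3, an AMP deaminase gene, rose by 1.21 and fell by 0.60, the second of which did not pass without AICAR 12h replicates 1 or 2 or AICAR 24h replicate 3. Rfxank rose by 1.02 and fell by 0.73, but its fall did not pass without probe sets that can match several transcripts (-0.092). Sbk1, Stmn4, Phex and Prl2c2 also rose first and fell later, with differences between the spans of -1.81, -1.94, -1.72 and -1.73. The 24 h mean of Phex was below background. As probe-set means the later falls of Rfxank, Sbk1 and Phex were -0.41, -0.37 and -0.39. The fall of Stmn4 did not pass without any one of the 6 arrays other than AICAR 12h replicate 3, nor that of Sbk1 without AICAR 12h replicate 2.

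Others fell first and recovered. Mgp, an inhibitor of tissue calcification, read 5.57, 5.96 and 5.51 at 12 h, against a 0 h mean of 6.86, and 7.74, 7.31 and 7.34 at 24 h, so that a fall by 1.18 was followed by a rise of 1.78 (difference 2.96 ± 0.26, adjusted p = 4.12e-06). Egr1 fell by 0.62 and rose by 2.06, ending above its 0 h mean of 9.75. Nr1d2 fell by 0.65 and rose by 1.20, Tef fell by 0.55 and rose by 0.68, and Arntl rose by 0.60 and fell by 0.39. Maff, Nfkbia and Gadd45a fell by 0.68, 0.59 and 0.85 and rose by 0.80, 0.64 and 0.71.

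**Figure D5:**
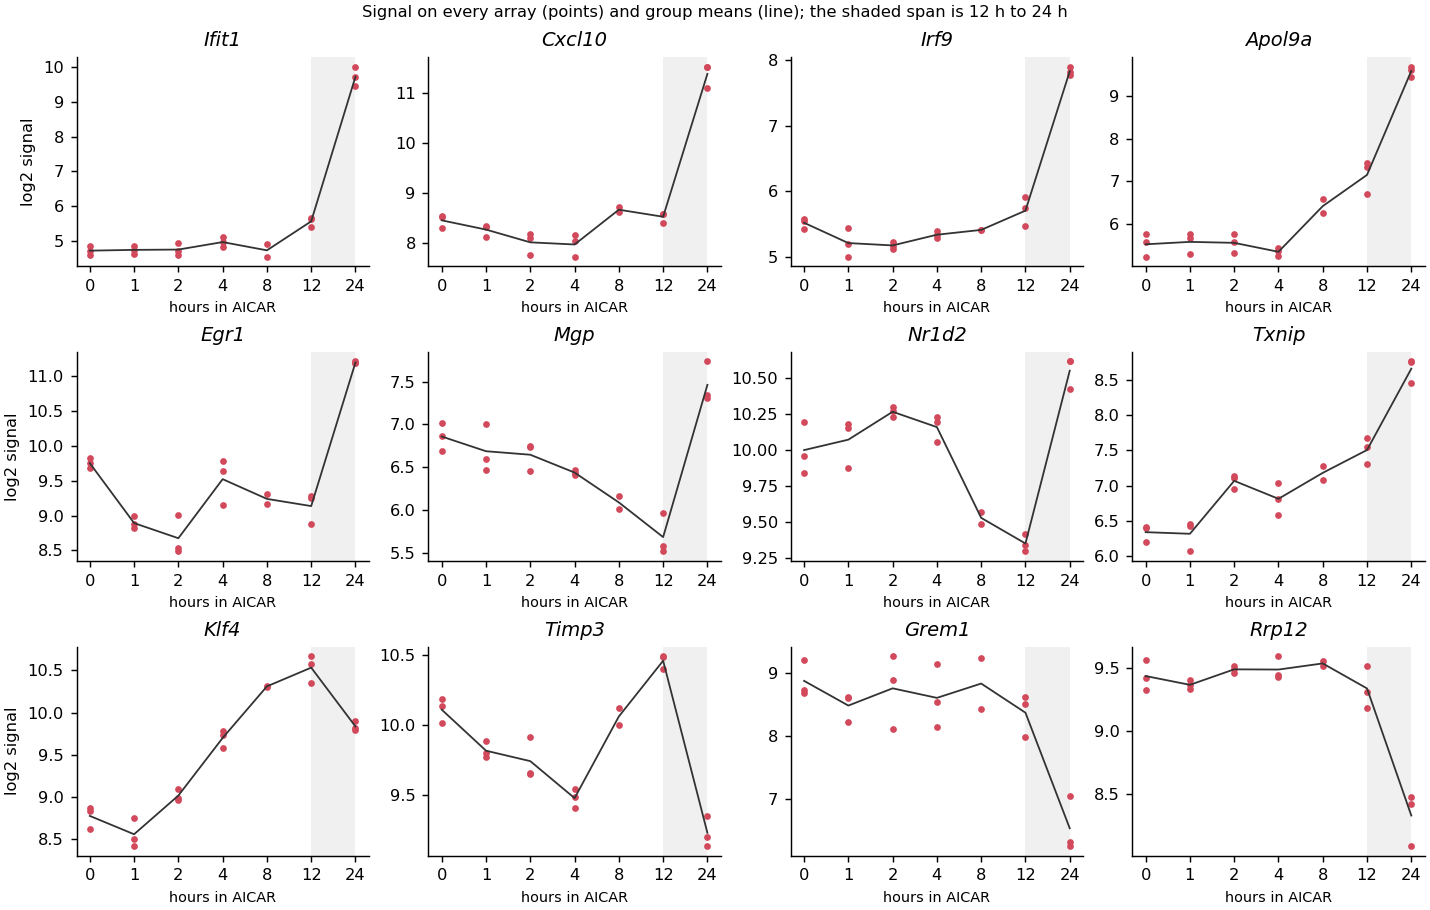
Log2 signal (y axis, scale differs by panel) against hours in AICAR (x axis, evenly spaced times) for 12 genes; points are arrays, lines join group means and the shaded span is 12 h to 24 h. Cxcl10 and Irf9 rise mostly inside the shaded span, and Ifit1 does so after a smaller earlier rise. Apol9a and Txnip start before the span. Egr1, Mgp and Nr1d2 reverse an earlier fall, and Klf4 and Timp3 reverse an earlier rise.

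Markers of other cell types were summed by list. The sums overlapped between the groups for macrophage, endothelial and muscle markers, and were lower at 24 h for adipocyte and epithelial markers. The part of these markers in the results was not tested. Their summed level (log2 of the sum of signals) was 8.51 to 8.62 at 12 h and 8.48 to 8.62 at 24 h for 12 macrophage markers, 7.88 to 7.99 and 7.80 to 7.93 for 8 endothelial markers, and 8.56 to 8.73 and 8.48 to 8.66 for 8 muscle markers. For 6 adipocyte markers it was 8.42 to 8.61 and 8.19 to 8.39, with Lpl lower (-0.36, not past the test without any one of AICAR 12h replicates 1 and 2 and AICAR 24h replicate 3), and for 9 epithelial markers 10.47 to 10.49 and 9.99 to 10.08, carried by Krt19, a keratin, which read 10.18, 10.16 and 10.09 and then 9.63, 9.54 and 9.44 (a fall by 0.61 ± 0.068). Of the 12 macrophage markers 4 lay above background in both groups and 5 were tested, of which Cd68, also a lysosomal membrane protein, rose by 0.47 ± 0.12, though not past the test without AICAR 12h replicate 2 or AICAR 24h replicate 2. Markers at the background level are not shown to be absent. In bulk RNA a change in the share of cells of a type and a change of RNA per cell cannot be told apart.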

How the data were processed

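Signals of 20 Affymetrix MG-430 PM arrays were taken from the authors' deposited table, in which total RNA had been extracted and biotin-labelled, per the labels' protocols. The deposited values were taken as log2, because the highest (13.46) exceeds the natural log of the largest 16-bit intensity (11.09) and lies below its log2 (16); how they were summarised and normalized is not stated in these sources. The medians of the arrays spanned 0.159, below the 0.2 that would have led to renormalization. Of 45141 probe sets 28898 have 1 gene symbol in the platform annotation (28689 matched by gene identifier), 551 several and 15692 none. A probe set was tested if at least 1 group mean exceeded the 40th percentile of the table (4.81).

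The model was limma 3.58.1 (R 4.3.3; lmFit and eBayes) with 7 group means over all 20 arrays (13 residual degrees of freedom), two-sided, with Benjamini-Hochberg adjustment over 20460 probe sets. The number of arrays limits the precision (median standard error 0.0986). On simulated data for 24 h against 12 h (20460 probe sets) the step recovered 94 of 100 probe sets changed by 1 and 59 of 100 changed by 0.5, and 11 of 164 calls were of unchanged probe sets. The simulated noise was independent for each probe set and array, without array-wide differences such as those of replicate 3. These rates may therefore not hold for the real arrays.

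The members and the 49 gene lists (1049 of their 1199 members were named on the array) were chosen with earlier results of these data known. Genes were named by rule: the 15 largest rises and falls past the threshold without overlap of arrays (predicted and unnamed loci skipped), the 8 largest differences between the spans in each direction among genes past both tests, up to 6 members a list by the size of t, all members of the interferon signalling and AMPK lists, and Prkaa1, Prkaa2, Adk, Lats1, Lats2, Txnip and Cdkn1a. Same-numbered arrays at 12 h and 24 h deviated together, with correlations of 0.452, 0.142 and 0.725, so the replicate number was treated as pairing them in an alternative fit, though 12 h replicate 2 correlated best with 24 h replicate 1 (0.593). Alternatives changed normalization, filter, probe set choice, variance model, array weights, the block, the arrays in the fit, the threshold and single arrays. Leaving out replicate 3 of every group was chosen after seeing the data. Plots used matplotlib 3.10.9 in Python 3.11.15.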

Additional observations from a re-analysis of the deposited data

Results flagged for a closer look

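The comparison of the second 12 h with the first was put forward for a closer look because it tests the difference between the changes over 12 h spans: 1374 of 20460 probe sets differed, 752 more positive and 622 more negative in the second. Both spans share the 12 h arrays, so an array that reads high at 12 h lowers one change and raises the other. The cause of the difference was not tested.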

How the results depend on the processing

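For 24 h minus 12 h the count of probe sets was 3419 and lay between 2224 and 3427 when single arrays were left out (higher 1246 to 2312, lower 846 to 1354; 644 to 1394 for the second minus the first 12 h). The total, higher and lower counts were 1272, 784 and 488 with only the groups compared and 1834, 1137 and 697 at an adjusted p of 0.01. With all probe sets of each gene averaged, untested ones included, 2217 genes passed, 1353 of them higher. The lower count was 834 with median centring and 2196 with the interquartile range as a covariate. For the second minus the first 12 h, against 1374, the count was 2326 with quantile normalization, 730 with median centring, 882 with probe sets averaged, 2439 with array weights, 2354 with the replicate block, 646 with only the groups compared, 2760 with the interquartile range as a covariate and 555 at an adjusted p of 0.01. The replicate block gave 4566 probe sets at 24 h minus 12 h, within 1.5 times the main count, and changed no call among the 236 named genes that passed. Of these 236, the number that no longer passed was 2 with quantile normalization, 23 with median centring, 70 with only the groups compared, 43 at an adjusted p of 0.01, 2 to 32 with single arrays left out and 34 without replicate 3 of every group. With probe sets averaged 21 no longer passed and 3 changed sign: Foxm1 (0.094), Clock (-0.114) and Cdkn1a (-0.019). The causes of these shifts were not tested. Signals below 5.08 cannot be told from non-specific controls, which limits the 56 genes that rose from a 12 h mean under that level.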

Other observations

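Gene groups not described above moved in part. Of 26 NRF2 targets and glutathione genes 5 rose and 2 fell, and of 22 ER chaperones and genes of the unfolded protein response 3 rose and 3 fell, with medians of 0.093 and -0.018. The co-chaperone gene Dnajb9, an IRE1 target, rose by 0.73 ± 0.11. Of 13 matrix proteases and their inhibitors 4 fell and 1 rose, with a median of -0.30, and of 22 contractile and cytoskeletal genes 3 fell and 0 rose. Of 10 histone genes 1 rose and 2 fell, and of 5 complement genes 1 rose. These shares can be read against 11.8% of all genes higher and 6.79% lower.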
